A study of Mus musculus with 32 samples.

Results

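Type I interferon effectors are the genes through which a cell that has met interferon resists a virus. The list held 35 of them, chosen by gene symbol as known interferon-stimulated genes, with earlier results of these data known. Of these, 34 were matched by symbol among the 31053 genes of the count table, and Mx2 was not analysed here. The question was which cell types of mouse epididymal fat carried each effector, and how the levels lay between diets and genotype labels.

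The cells were the stromal vascular fraction of epididymal fat, the cells left when the fat cells are removed, read with droplet single-cell RNA sequencing of transcript 3′ ends (10x Genomics v3 chemistry). There were 4 groups: mice of strain C57BL/6 (labelled WT) or CD169-DTR (labelled DTR), each fed Normal Diet or, in 2 groups, High Fat Diet, over 16 weeks. All 4 groups, the WT groups included, received DT (diphtheria toxin) for 7 days. Each group had 1 library, since its 8 records are sequencing runs of 1 library, and the labels do not give the number of mice or their age. CD169-DTR mice carry the receptor for diphtheria toxin under control of Siglec1, which encodes CD169, a surface protein of some tissue macrophages. Immune (CD45+) and other (CD45-) cells were sorted apart and mixed in equal parts, and the sort left out much of the F4/80-high macrophages and Ly6C-high monocytes, so the shares of cell types are not those of the tissue.

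Cells sense viral RNA and DNA with sensors such as Ifih1 (MDA5), Ddx58 (RIG-I) and Zbp1 and then release interferon beta or alpha. The interferon binds the Ifnar1 and Ifnar2 receptor, and the signal passes through the kinases Jak1 and Tyk2 to the interferon-stimulated response element in the promoters of effector genes. The effectors then block the virus at entry (Ifitm3), translation (Ifit1, Eif2ak2), genome copying (Rsad2, the OAS enzymes) or release (Bst2). In fat, interferon signalling has been studied in adipocyte progenitors and in macrophages.

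The core of the response element was searched in the promoters to describe a sequence the members could share. The members were chosen as known interferon-stimulated genes, so the share that holds it is not independent of their choice. The motif was GAAANNGAAA on either strand (TTTCNNTTTC when read on the gene's strand in reverse), overlapping matches counted, in RefSeq promoters of build GRCm38.p6 that run from 250 bases before to 50 bases after a gene's start. Of the members, 25 matched a promoter by symbol, and Ifi27l2a, Mx1, Usp18, Parp9, Rtp4, Mx2, Parp14, Oas2, Dhx58 and Zbp1 did not. The motif stood in 14 of the 25 (56%), against 1079 of 27025 genes (3.99%). A longer form, with CT after the second GAAA (AG before the first TTTC in reverse), stood in 9 of the 25 (36.0%) against 82 of all genes (0.303%). Both counts take Ifit3 and Ifit3b, and Oas1a and Oas1g, as separate genes although their stretches are the same. A match is a description of the letters and not a measured binding site. The stretches below are shown for 8 members that span the sensors, the IFIT and OAS families, Isg15 and the genes that block virus copying or release, chosen to show single, paired and overlapping copies, 5′ to 3′ on the gene's strand, with the motif in capitals.
Ifih1 (chr2:62646206-62646233, minus strand): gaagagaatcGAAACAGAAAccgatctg
Ifit1 (chr19:34640770-34640828, plus strand): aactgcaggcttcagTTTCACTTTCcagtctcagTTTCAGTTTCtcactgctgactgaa
Ifit3 (chr19:34583358-34583397, plus strand): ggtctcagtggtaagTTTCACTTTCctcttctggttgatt
Ifit3 (chr19:34583392-34583431, plus strand): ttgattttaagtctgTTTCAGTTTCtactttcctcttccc
Oas1a (chr5:120907526-120907555, minus strand): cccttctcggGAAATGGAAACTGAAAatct
Oas3 (chr5:120777710-120777749, minus strand): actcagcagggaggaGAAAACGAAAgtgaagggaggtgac
Isg15 (chr4:156200860-156200911, minus strand): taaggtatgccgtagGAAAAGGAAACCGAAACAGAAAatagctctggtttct
Bst2 (chr8:71537572-71537617, minus strand): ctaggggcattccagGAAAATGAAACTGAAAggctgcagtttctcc
Rsad2 (chr12:26456548-26456587, minus strand): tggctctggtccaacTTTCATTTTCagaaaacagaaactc
Isg15 held 3 overlapping copies, Oas1a and Bst2 2 overlapping copies, and Ifit1 2 separate ones. The stretch of Oas1a is repeated letter for letter in its neighbour Oas1g (chr5:120887612-120887641), and both stretches of Ifit3 in Ifit3b (chr19:34607754-34607793 and chr19:34607788-34607827). Near copies of genes can matter for the counts too. Reads of Ifit3 and Ifit3b, of Oas1a and Oas1g and of Ifitm3 and its family may not be told apart. The separate levels of these genes are therefore uncertain. Of the 34 measured members, all 6 OAS genes lie on chromosome 5 and all 4 IFIT genes on chromosome 19.

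The files held 22703 barcodes and 184954697 unique molecular identifiers (UMIs, counted transcripts). A floor of 300 genes and a ceiling of 10% mitochondrial UMIs kept 19232 cells, with medians of 6679 to 9285 UMIs per library. Of these, 13832 (71.9%) passed a gate on marker genes into 15 classes, none of whose markers is an effector. The libraries shared 298 barcodes, and of each the copy with the most UMIs was kept. The 360 lower copies had a median of 623 UMIs, 265 of them were labelled normal diet WT, and leaving them out took that library's macrophage gate from 42 to 21 cells. Siglec1, whose expressing cells the toxin targets, had 1, 21, 28 and 47 UMIs in macrophages of normal diet WT, normal diet DTR, high fat diet WT and high fat diet DTR (3.37, 13.2, 7.63 and 9.94 CPM, which is UMIs scaled to a common total, in counts per 1e6 UMIs). In monocytes Siglec1 had 0, 6, 1 and 19 UMIs. The libraries labelled DTR were thus not lower in Siglec1 in the cells captured, and directions below are those of the library labels. All per-library values below are given in this same order of the 4 libraries.

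Monocytes, fibroblasts (with adipocyte progenitors), macrophages and neutrophils each carried many effectors above the mean of the other classes, among the classes with 20 or more cells in every library. Their order by count was not stable, since it turned when 1 library was left out. Type 1 conventional dendritic cells, which show viral antigen to T cells, natural killer cells and B cells carried few. Each class was set against the mean of the other classes with edgeR's quasi-likelihood test on UMIs summed per class and library, with library as a block and a Benjamini-Hochberg adjusted p under 0.05 over all genes. The filter on low counts left 9806 genes and 33 of the 34 members, without Ifi44. Monocytes were higher in 25 of 33 members, where 23.2% of all genes were higher, and lower in 0, where 12.5% of all genes were lower. None was lower in monocytes at an unadjusted p under 0.05 in edgeR, and DESeq2 called 0. The median log2 difference of the members in monocytes was 1.29, against 0.01 for all genes. Without the normal diet DTR library the monocyte count fell to 12. Fibroblasts were higher in 18 members (42.6% of all genes) and lower in 4 (29.7%), with a median of 0.79 against 0.17. Without the normal diet WT library, or without the high fat diet DTR library, 2 members were lower. Macrophages were higher in 17 (30.3%) and lower in 2 (22.0%), with a median of 0.60 against 0.07. Without normal diet WT 4 were lower in macrophages, and without high fat diet DTR 1 was. Neutrophils were higher in 15 (13.4%) and lower in 2 (21.8%), with a median of 1.14 while that of all genes was -0.80. Without normal diet DTR, or without high fat diet WT, 1 member was lower in neutrophils. The 42.6% of all genes higher in fibroblasts was the largest such share of the 10 classes, so the fibroblast count stands less far above its background than the monocyte or neutrophil count.

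Type 1 conventional dendritic, natural killer and B cells were lower in many of the members, while the count lower in T cells was near the share of all genes. Type 1 conventional dendritic cells were lower in 18 members (19.9% of all genes) and higher in 5 (23.7%), with a median log2 difference of -0.91 against -0.03 for all genes. Natural killer cells were lower in 17 (23.1%) and higher in 2 (30.5%), with a median of -1.04 against 0.10, and 4 were higher without normal diet DTR. B cells were lower in 16 (17.3%) and higher in 1 (23.4%), with a median of -0.99 against 0.04. The 1 member higher in B cells, Ddx58, was lost without normal diet WT or high fat diet WT, and 2 were higher without high fat diet DTR. T cells were lower in 6 (16.8%) and higher in 1 (27.0%), with a median of -0.18 against 0.10, and 2 were higher without high fat diet DTR. Type 2 conventional dendritic cells were higher in 7 (17%) and lower in 0 (8.40%). At an unadjusted p under 0.05 in edgeR 0 were lower there, DESeq2 called 0, and without high fat diet WT 4 were higher. Migratory dendritic cells, which carry antigen to lymph nodes, were higher in 5 (18%) and lower in 4 (16.7%). Without normal diet WT or normal diet DTR 1 was lower in migratory cells, and without high fat diet DTR 2 were. These p-values rest on 4 libraries of 4 conditions, so they measure the spread of a class difference between these libraries.

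Endothelial cells, which line the vessels, stood with the monocytes at the top once classes with 20 or more cells in only 3 libraries were added, a choice made after seeing the data. In this fit of 13 classes and 10753 genes, all 34 measured members were tested. Vascular endothelial cells were higher in 26 of 34 (33.7% of all genes) and lower in 4 (26.6%), with a median log2 difference of 1.55 against 0.05 for all genes. Plasmacytoid dendritic cells, the specialised makers of interferon alpha, were higher in 4 (9.56%) and lower in 3 (7.80%). Group 2 innate lymphoid cells were lower in 6 (9.43%) and higher in 0 (13.8%), with 0 higher at an unadjusted p under 0.05 in edgeR, where DESeq2 was not run. The endothelial cells of high fat diet DTR, 15 in all, entered no comparison. Endothelial cells also held 19083, 6826 and 29863 CPM of erythrocyte markers and 1746, 1382 and 105 CPM of adipocyte markers in the other 3 libraries, whose part in the result was not tested. In neutrophils the erythrocyte markers summed to 52.5, 20529, 23.0 and 0 CPM, which was also not tested.

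**Figure D1:**
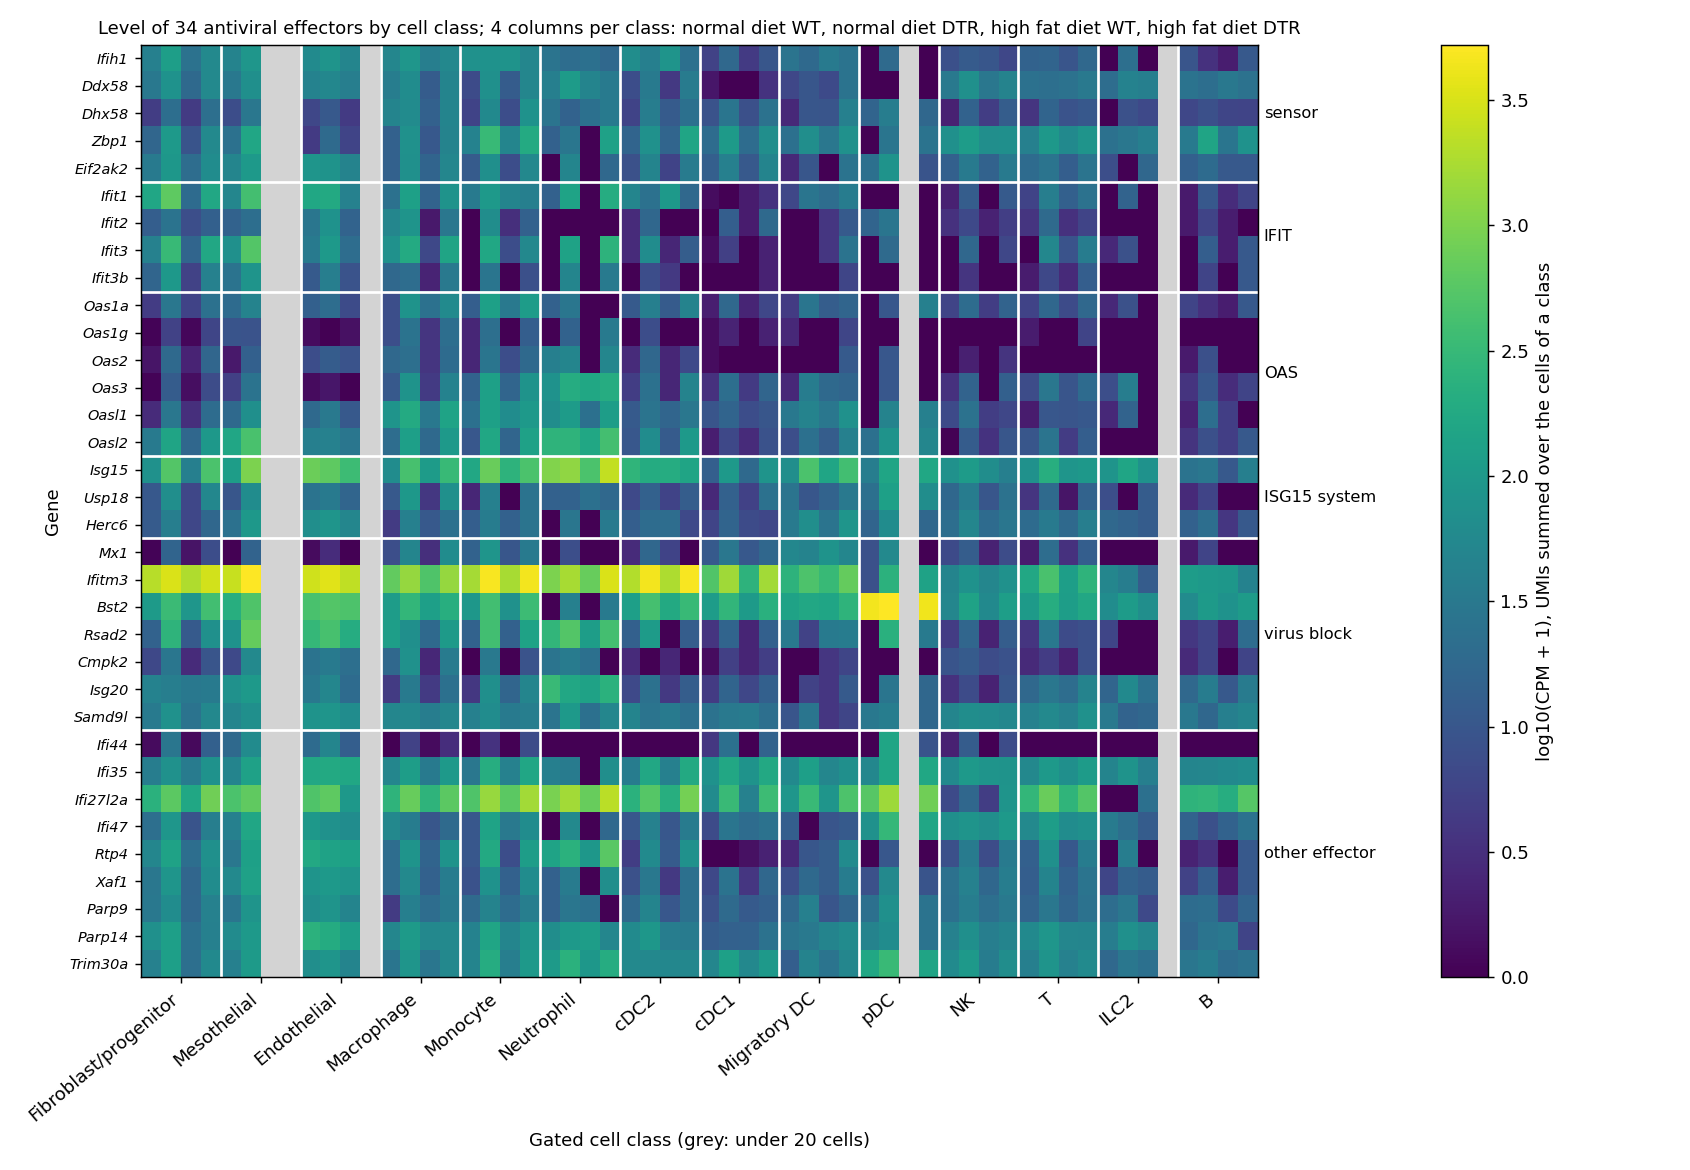
Heat map of the levels of the 34 measured effectors (rows, by role) in each gated cell class and library (columns), as log10 of CPM plus 1, with grey for classes of under 20 cells. Isg15, Ifi27l2a and Ifitm3 are the brightest rows, and Bst2 is brightest in plasmacytoid dendritic cells.

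**Figure D2:**
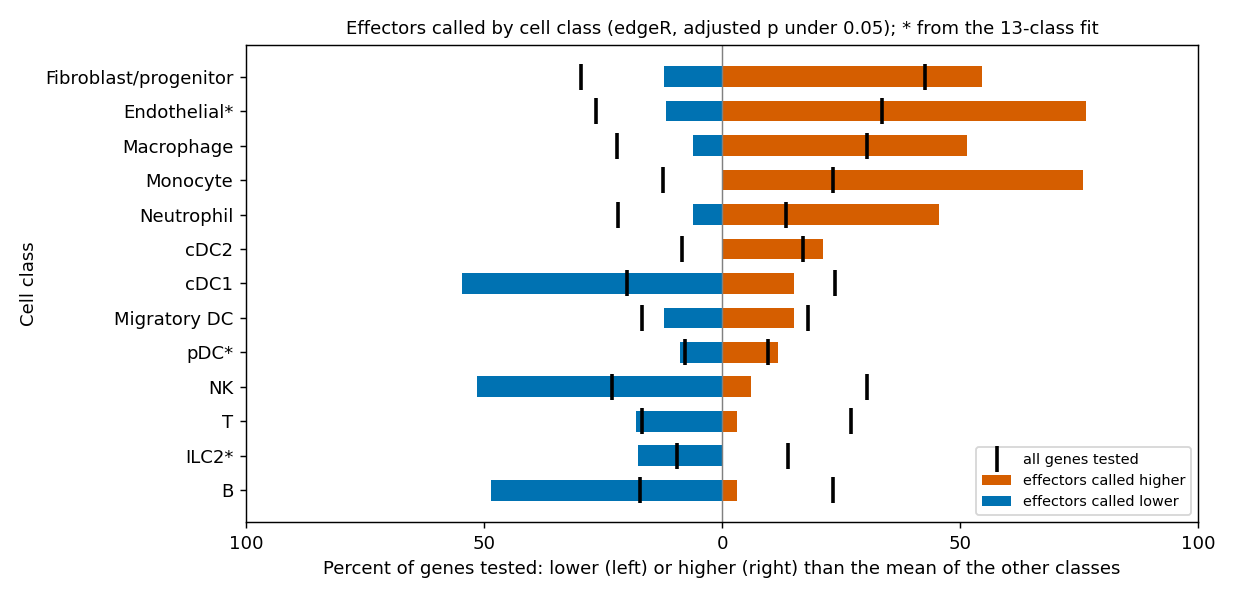
Bars give the percent of effectors tested that were higher (right) or lower (left) in each class than in the mean of the other classes at an adjusted p under 0.05, and ticks give the same percent over all genes tested (an asterisk marks classes of the 13-class fit). The bars of monocytes, neutrophils and endothelial cells reach well to the right of their ticks, and those of type 1 conventional dendritic, natural killer and B cells to the left.

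Statements of the class that was highest, lowest or next for a member, here and below, cover only the classes of the main test. Among the sensors, the RNA sensors Ifih1 and Ddx58 had their highest means in myeloid cells and fibroblasts. The nucleic acid sensor Zbp1 had its highest mean in monocytes. Among the classes of the main test, monocytes led Zbp1 in the 2 libraries labelled DTR and natural killer cells in the 2 labelled WT. Ifih1, which detects long double-stranded RNA, stood at 75.8, 78.6, 81.8 and 50.03 CPM in monocytes (log2 difference 1.78, edgeR adjusted p = 3.92e-07). In fibroblasts Ifih1 stood at 41.0, 119, 24.5 and 54.8 CPM, so that monocytes were above fibroblasts in 2 of 4 libraries and the leading pair did not separate. B cells held 8.67, 2.38, 0.98 and 9.76 CPM of Ifih1, below the monocytes in all 4 libraries. Type 2 conventional dendritic cells held 64.7, 39.6, 83.5 and 22.8 CPM of Ifih1, with both libraries labelled WT above both labelled DTR. Those labelled DTR had only 35 and 30 such cells, so these values rest on few UMIs, and the difference was not tested. Zbp1, which senses left-handed nucleic acids and can start cell death, stood at 44.0, 321, 48.6 and 188 CPM in monocytes (log2 difference 1.33, edgeR adjusted p = 4.24e-05). Both monocyte libraries labelled DTR were above both labelled WT for Zbp1. In the natural killer cells, next in order, Zbp1 stood at 73.1, 114, 68.6 and 70.9 CPM, and monocytes were above them in 2 of 4. Zbp1 was lower in fibroblasts (-0.68), in macrophages (-1.15) and, in the 13-class fit, in endothelial cells (-2.55), which held 3.31, 18.6 and 4.70 CPM. The fibroblast and macrophage calls of Zbp1 were not made in the 13-class fit (edgeR adjusted p of 0.397 and 0.0692).

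The other 3 sensors had different leading classes, and their levels, like those of further members below, were added after the values were seen. Ddx58, the sensor of RNA with a 5′ triphosphate, was highest in neutrophils at 39.3, 110, 46.0 and 33.7 CPM, which rest on 3, 16, 2 and 2 UMIs. Fibroblasts held 30.2, 78.7, 17.4 and 56.3 CPM of Ddx58 on 297 to 2157 UMIs, and were below neutrophils in 3 of 4 libraries. Ddx58 had 2, 0, 0 and 2 UMIs in type 1 conventional dendritic cells. In the main test Ddx58 was called higher in fibroblasts, monocytes and neutrophils, and also in B and natural killer cells. Dhx58 (LGP2), a helper of the other RNA sensors, was highest in macrophages at 47.1, 62.1, 13.1 and 46.5 CPM (log2 difference 1.22, edgeR adjusted p = 0.000209). Monocytes were similar in the 2 libraries labelled DTR for Dhx58 (57.2 and 79.0 CPM) and low in those labelled WT (4.55 and 6.63 CPM). Eif2ak2 (PKR), the kinase that stops translation on viral RNA, was highest in fibroblasts in all 4 libraries among the classes of the main test, at 33.4, 91.3, 20.4 and 63.3 CPM (log2 difference 1.30, edgeR adjusted p = 2.91e-08).

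The IFIT genes, whose proteins bind viral RNA and keep it from being translated, were led by fibroblasts and macrophages among the classes of the main test. Ifit1, Ifit3 and Ifit3b were nearly missing from type 1 conventional dendritic cells. In the 13-class fit all 4 IFIT genes were also called higher in endothelial cells. Ifit1 stood at 156, 624, 18.9 and 169 CPM in fibroblasts (log2 difference 3.49, edgeR adjusted p = 4.53e-12). Its fibroblast level was lowest in high fat diet WT and highest in normal diet DTR. Neutrophils, next in order, held 13.1, 144, 0 and 202 CPM of Ifit1, above fibroblasts in high fat diet DTR only. Ifit1 had 1, 0, 2 and 2 UMIs in the type 1 conventional dendritic class of 269, 77, 178 and 114 cells. In type 2 conventional dendritic cells Ifit1 was at 49.0, 23.1, 102 and 17.1 CPM, so here too both libraries labelled WT were above both labelled DTR. The values labelled DTR rest on few UMIs from 35 and 30 cells, and the difference was not tested. Ifit3 stood at 41.7, 322, 15.2 and 172 CPM in fibroblasts (log2 difference 3.26, edgeR adjusted p = 7.27e-13). Macrophages held 74.1, 190, 5.45 and 146 CPM of Ifit3 (2.45, edgeR adjusted p = 2.08e-07), below fibroblasts in 3 of 4 libraries. Ifit3 had 1, 3, 0 and 1 UMIs in type 1 conventional dendritic cells. Ifit3b ran with Ifit3 in fibroblasts at 15.4, 96.0, 4.46 and 41.6 CPM, as near copies whose reads may not be told apart. Ifit2 was highest in macrophages at 50.5, 82.8, 0.818 and 28.5 CPM (log2 difference 2.20, edgeR adjusted p = 0.000149), with only 3 UMIs in high fat diet WT. Neutrophils, although high in Ifit1 and Ifit3, had no UMI of Ifit2 in any library.

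The OAS family makes a messenger that switches on the RNA-cutting enzyme RNase L, and its members split between neutrophils, macrophages and monocytes. Oasl2 stood at 262, 261, 161 and 404 CPM in neutrophils (log2 difference 3.73, edgeR adjusted p = 4.1e-13), on 7 to 38 UMIs, and neutrophils led in all 4 libraries of the main test. Monocytes, next in order, held 9.10, 161, 15.5 and 135 CPM of Oasl2, high only in the libraries labelled DTR. The level of Oasl2 in type 1 conventional dendritic cells was 1.02, 5.32, 1.89 and 7.68 CPM. Oasl1, which binds viral RNA without the enzyme activity, stood at 84.2, 185, 29.99 and 144 CPM in macrophages (log2 difference 2.15, edgeR adjusted p = 1.35e-08), above neutrophils in all 4 libraries. Fibroblasts were low for Oasl1 at 1.83, 29.4, 2.13 and 19.99 CPM (-1.26, edgeR adjusted p = 0.00023). Oas3, the largest enzyme of the family, stood at 78.7, 199, 161 and 202 CPM in neutrophils (log2 difference 3.48, edgeR adjusted p = 1.31e-08) and at 0.102, 11.1, 0.355 and 6.29 CPM in fibroblasts (-2.51, edgeR adjusted p = 2.77e-09). Oas2 was also highest in neutrophils, on only 3, 7, 0 and 3 UMIs, and T cells had none in any library. Oas1a was highest in monocytes at 12.1, 129, 30.95 and 113 CPM (2.29, edgeR adjusted p = 2.82e-11), with both libraries labelled DTR above both labelled WT. Oas1g was highest in macrophages at 6.73, 25.1, 2.73 and 20.9 CPM (2.21, edgeR adjusted p = 2.73e-05) and had no UMI in B or natural killer cells.

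Isg15, a ubiquitin-like tag that is joined to many proteins during infection, was the third most abundant member with 6.67% of all member UMIs. It stood at 1036, 1278, 460 and 2408 CPM in neutrophils (log2 difference 3.08, edgeR adjusted p = 2.54e-10), above every other class of the main test in all 4 libraries. Monocytes held 170, 748, 256 and 469 CPM of Isg15, and endothelial cells 778, 626 and 357 CPM (2.15 in the 13-class fit, edgeR adjusted p = 5.62e-08). B cells had the lowest mean of Isg15, at 25.1, 28.6, 9.80 and 39.1 CPM. Usp18, the protease that removes the Isg15 tag and blocks the interferon receptor, stood at 10.1, 95.9, 3.00 and 72.3 CPM in macrophages (1.37, edgeR adjusted p = 0.000318). Its macrophage levels in libraries labelled DTR were well above those labelled WT, as they were in fibroblasts at 9.65, 67.5, 5.27 and 51.3 CPM. Herc6, the ligase that attaches Isg15 in mice, had another pattern. Migratory dendritic cells led it in all 4 libraries of the main test at 32.8, 67.3, 26.1 and 86.2 CPM (1.78, edgeR adjusted p = 6.29e-06).

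Of the members that block virus entry, copying or release, Ifitm3, which traps viruses in endosomes, made up 48.2% of all member UMIs. It stood at 1978, 4571, 1832 and 4762 CPM in type 2 conventional dendritic cells (log2 difference 2.57, edgeR adjusted p = 8.25e-15). Monocytes at 1655, 4811, 1687 and 4468 CPM (2.30, edgeR adjusted p = 2.18e-13) and fibroblasts at 2080, 3206, 1895 and 2933 CPM of Ifitm3 (2.20, edgeR adjusted p = 7.05e-14) lay within the same range. These 3 classes of the main test were therefore not ordered. Ifitm3 was also called higher in endothelial cells in the 13-class fit, so these 3 are not the only classes rich in it. Natural killer cells held 46.0, 77.3, 49.6 and 74.7 CPM of Ifitm3 (-4.09, edgeR adjusted p = 7.3e-14), below every library of those 3. Bst2 (tetherin), which holds budding viruses at the surface, stood at 127, 419, 179 and 325 CPM in type 2 conventional dendritic cells (1.14, edgeR adjusted p = 4.76e-06). Fibroblasts held 104, 343, 88.0 and 394 CPM of Bst2, so this pair overlapped. Plasmacytoid dendritic cells, for which Bst2 is a known surface marker, held 4571, 5111 and 4332 CPM in the 3 libraries with enough cells (4.58 in the 13-class fit, edgeR adjusted p = 1.15e-26). These 3 were normal diet WT, normal diet DTR and high fat diet DTR, since high fat diet WT had 4 such cells. With that class in the mean, Bst2 was no longer called higher in fibroblasts, monocytes, migratory or type 1 conventional dendritic cells (edgeR adjusted p of 0.474, 0.592, 0.236 and 0.518). Neutrophils had 0, 6, 0 and 2 UMIs of Bst2, the reverse of their place for Isg15.

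Rsad2 (viperin), which makes a chain-ending nucleotide, and Isg20, an RNA-trimming exonuclease, were led by neutrophils in all 4 libraries of the main test. Rsad2 stood there at 275, 522, 115 and 404 CPM (log2 difference 3.72, edgeR adjusted p = 1.36e-07), and endothelial cells held 301, 438 and 200 CPM (4.05 in the 13-class fit, edgeR adjusted p = 8.36e-14). Isg20 stood at 328, 172, 138 and 236 CPM in neutrophils (3.85, edgeR adjusted p = 5.29e-10). Cmpk2, the neighbour of Rsad2 that supplies its nucleotide, was highest in macrophages at 16.8, 75.2, 1.64 and 34.7 CPM (2.28, edgeR adjusted p = 1.67e-06). Mx1, a GTPase that traps viral nucleoproteins, was highest in migratory dendritic cells at 51.8, 44.9, 81.1 and 50.7 CPM (3.77, edgeR adjusted p = 2.24e-07), on 10 to 30 UMIs. Unlike most members, Mx1 there showed no rise with the DTR label, while monocytes went from 13.7 to 85.4 CPM on normal diet and from 8.84 to 32.1 CPM on high fat diet. C57BL/6 mice are known to carry an Mx1 that makes no working protein. Samd9l, a restriction factor of poxviruses, was called higher in no class of the main test and lower in migratory dendritic cells (-1.86, edgeR adjusted p = 0.000805). In the 13-class fit Samd9l was higher in endothelial cells at 81.5, 85.1 and 64.4 CPM (0.98, edgeR adjusted p = 5.14e-05).

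The other effectors again had leaders in several classes. Ifi27l2a, a mitochondrial and membrane protein, held 10.9% of member UMIs and stood at 931, 1594, 713 and 2189 CPM in neutrophils (log2 difference 2.09, edgeR adjusted p = 2.09e-10). Natural killer and T cells were far apart for Ifi27l2a, with 5.89, 16.7, 3.81 and 82.5 CPM in natural killer cells (-4.62, edgeR adjusted p = 3.61e-14) and 287, 749, 274 and 539 CPM in T cells. Every T cell library was above every natural killer library. Ifi35, a partner of the regulator Nmi, stood at 77.1, 168, 81.3 and 177 CPM in type 1 conventional dendritic cells (1.07, edgeR adjusted p = 1.47e-05). Among the classes of the main test, Ifi35 was the one member whose mean was highest in that class. Endothelial cells, outside that test, held 166, 178 and 162 CPM of Ifi35, level across the libraries and above type 1 conventional dendritic cells in each of them. Ifi47, an immunity-related GTPase, was highest in natural killer cells at 69.6, 84.6, 67.4 and 102 CPM (1.46, edgeR adjusted p = 0.000222) and T cells at 55.1, 119, 64.5 and 72.1 CPM (1.45, edgeR adjusted p = 0.000337), which overlapped. Rtp4, a chaperone of surface receptors, stood at 144, 234, 92.0 and 589 CPM in neutrophils (3.77, edgeR adjusted p = 2.54e-10) and 174, 136 and 131 CPM in endothelial cells (3.90 in the 13-class fit, edgeR adjusted p = 3.61e-15). In type 1 conventional dendritic cells Rtp4 had 0, 0, 1 and 1 UMIs.

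The remaining effectors were Trim30a, Xaf1, Parp9, Parp14 and Ifi44. Trim30a, a regulator of inflammatory signalling, was highest in neutrophils at 105, 240, 92.0 and 202 CPM (log2 difference 1.41, edgeR adjusted p = 0.000156). Among the classes of the main test Xaf1, a promoter of cell death, was highest in fibroblasts at 28.6, 85.3, 15.8 and 64.3 CPM (1.26, edgeR adjusted p = 2.89e-09). Endothelial cells, outside that test, held 82.8, 97.0 and 83.3 CPM (2.51 in the 13-class fit, edgeR adjusted p = 6.92e-15), above fibroblasts in each of these libraries. The ADP-ribosyltransferases Parp9 and Parp14 were both higher in endothelial cells. Parp14 stood there at 246, 196 and 122 CPM (1.84 in the 13-class fit, edgeR adjusted p = 5e-11). Ifi44, which had too few UMIs for the main test, had none in B, T, migratory dendritic, neutrophil or type 2 conventional dendritic cells. In endothelial cells Ifi44 was at 18.8, 47.9 and 11.8 CPM (3.41 in the 13-class fit, edgeR adjusted p = 2.42e-06). By mean level among the 10 classes of the main test, neutrophils led 10 members, fibroblasts 7, macrophages 6 and monocytes 4, and the other 7 were led by natural killer or dendritic cells. Neutrophils are shallow cells, with median UMIs of 796 to 1464 per library, so their levels rest on few UMIs.

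Because Ifitm3, Ifi27l2a and Isg15 hold most member UMIs, the load of a class was summed over the other 31 measured members. The highest load was in plasmacytoid dendritic cells, most of it Bst2. It was 5085 CPM in normal diet WT, 7157 CPM in normal diet DTR and 5200 CPM in high fat diet DTR. Fibroblasts carried 890, 3311, 450 and 1853 CPM, monocytes 573, 3671, 701 and 2287 CPM, and macrophages 1023, 2533, 559 and 1875 CPM. In each of these 3 classes both libraries labelled DTR were above both labelled WT. Neutrophils carried 1626, 2858, 1081 and 3301 CPM. Natural killer cells carried 580, 1159, 562 and 889 CPM and T cells 564, 1299, 633 and 1053 CPM. In high fat diet WT fibroblasts lay below both, and macrophages lay below T cells and level with natural killer cells. In normal diet WT monocytes were level with both. Over all 34 members fibroblasts of high fat diet WT held 2545 CPM, against 681 in natural killer and 1116 in T cells. Endothelial cells carried 2407, 2892 and 1794 CPM, with counting intervals that do not overlap and the lowest load in high fat diet WT. B cells carried the least of the 10 classes of the main test in all 4 libraries, at 361, 627, 344 and 552 CPM.

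**Figure D3:**
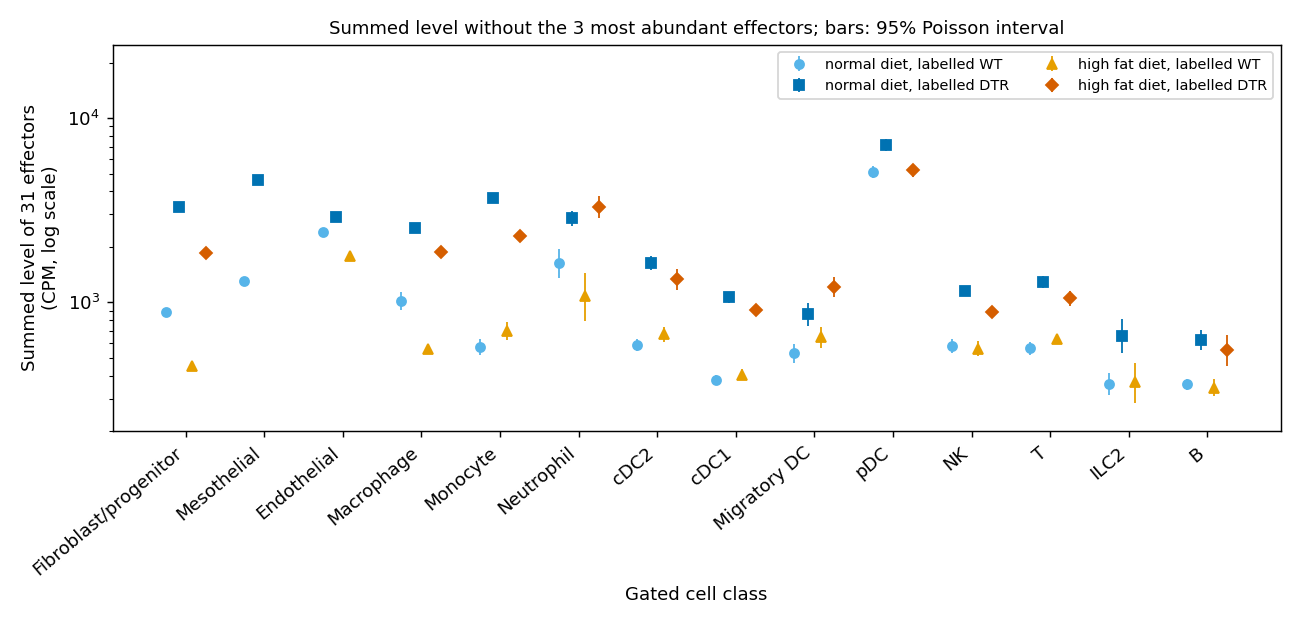
Summed level of 31 effectors (CPM, log scale) in each gated class and library, with bars for the 95% Poisson interval of the counts. In each class with all 4 libraries both libraries labelled DTR lie above both labelled WT.

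The comparison of genotype labels asked how the effectors differed after toxin treatment between the DTR and WT libraries of 1 diet. Effectors were higher in the libraries labelled DTR in most classes and on both diets. By median ratio monocytes and fibroblasts led on normal diet, followed by mesothelial and type 1 conventional dendritic cells. Endothelial and B cells were lowest there. On high fat diet fibroblasts, macrophages and monocytes led, and B cells were lowest. Macrophages were compared on high fat diet only, and mesothelial and endothelial cells on normal diet only. With 1 library per group there was no test. Values are log2 ratios of CPM with 95% exact intervals for counting error only, in classes of at least 50 cells in both libraries. The members counted had at least 50 UMIs over both libraries. A member low in one library can pass through the other, so the counts describe the members measured and are no test, and called means at least 2-fold. On normal diet, 31 of 34 members were at least 2-fold higher in fibroblasts labelled DTR, where 6.43% of all genes measured were. The members' median log2 ratio there was 2.00 and that of all genes 0.11. Mx1 had 206 UMIs against 1 (14.8 and 0.102 CPM, log2 7.18, interval 4.69 to 12.50), Oas3 11.1 against 0.102 CPM, and Ifi44 28.3 against 0.305 CPM. Of the fibroblast members, Isg20 was the one below 0 at -0.18 (interval -0.37 to 0.01). In monocytes 26 of 28 measured were 2-fold higher (10.2% of all genes), with a median of 2.78 against 0.11. Ifit3 there had 190 UMIs against 0 and was at least 35.7-fold higher, Rsad2 stood at 394 against 13.7 CPM, and Isg20 at 70.9 against 3.03 CPM. Ifih1 was level in the same monocytes at a log2 ratio of 0.05 (interval -0.46 to 0.58).

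The other classes on normal diet had median log2 ratios from 1.59 in mesothelial to 0.11 in B cells. In mesothelial cells, the lining of the fat pad, 23 of 28 were 2-fold higher (3.03% of all genes), with a median of 1.59 against 0.02, led by Cmpk2 (56.2 against 5.68 CPM), Rsad2 (686 against 78.8 CPM) and Isg15 (968 against 117 CPM). In type 1 conventional dendritic cells 9 of 10 were (2.56%), with a median of 1.56 against 0.11, led by Isg15 (99.8 against 12.3 CPM), Ifi27l2a and Zbp1. In T cells 7 of 11 were (2.83%), with a median of 1.11 against 0.09, led by Rtp4, Isg15 and Ifitm3. In natural killer cells 6 of 16 were (5.78%), with a median of 0.77 against 0.17, led by Rtp4, Bst2 and Eif2ak2. In endothelial cells 4 of 28 were (1.17%), with a median of 0.34 against 0.04, namely Ifit3b (37.9 against 10.2 CPM), Ifit3 (102 against 32.0 CPM), Ifit2 (77.1 against 27.9 CPM) and Ifi44. Endothelial Rtp4 and Parp14 were lower in the library labelled DTR, at log2 ratios of -0.35 (interval -0.59 to -0.13) and -0.33 (interval -0.52 to -0.13). In B cells 2 of 11 were 2-fold higher (2.87%), with a median of 0.11 while that of all genes was -0.06. These were Zbp1, at 145 against 33.4 CPM, and Isg20. In neutrophils 0 of the 6 members measured were 2-fold higher (9.51%), with a median of 0.54 and log2 ratios from -0.93 for Isg20 to 0.92 for Rsad2.

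On high fat diet the fibroblasts again stood out, with 30 of 34 members at least 2-fold higher in the library labelled DTR (15.9% of all genes). Their median log2 ratio was 2.29 against 0.32 for all genes, and TMM scaling, which sets the bulk of genes level, shifts every fibroblast ratio by -0.29. Ifi44 stood at 12.7 against 0.253 CPM, Oas1g at 4.98 against 0.152 CPM and Oas3 at 6.29 against 0.355 CPM. In macrophages 27 of 33 were 2-fold higher (13.9%), with a median of 2.06 against 0.27 and a shift of -0.25 under TMM. In the other classes and the diet comparison the TMM shifts lay between -0.18 and 0.19. In the macrophages of this diet Ifit2 had 135 UMIs against 3 (28.5 and 0.818 CPM, interval of the log2 ratio 3.55 to 7.42). Mx1 stood at 64.3 against 2.18 CPM and Ifit3 at 146 against 5.45 CPM in these macrophages. In monocytes 18 of 25 were (7.47%), with a median of 1.86 against 0.11, led by Rtp4 (117 against 6.63 CPM), Dhx58 (79.0 against 6.63 CPM) and Rsad2 (138 against 13.3 CPM). Monocyte Ifih1 went the other way, with a log2 ratio of -0.71 (interval -1.32 to -0.08). In type 1 conventional dendritic cells 7 of 10 were 2-fold higher (2.19%), led by Ifi27l2a, Ifitm3 and Isg15. In natural killer cells 2 of 11 were (4.29%), namely Ifi27l2a at 82.5 against 3.81 CPM and Bst2. In T cells 2 of 12 were (1.92%), Isg20 and Ifitm3. The medians of these last classes were 1.46, 0.59 and 0.55, against 0.04, 0.07 and 0.09 for all genes. In B cells of this diet 1 of 5 measured members was 2-fold higher (2.86%), with log2 ratios from -1.07 for Ifitm3 (43.9 against 92.2 CPM) to 1.44 for Ifi27l2a (552 against 204 CPM).

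**Figure D4:**
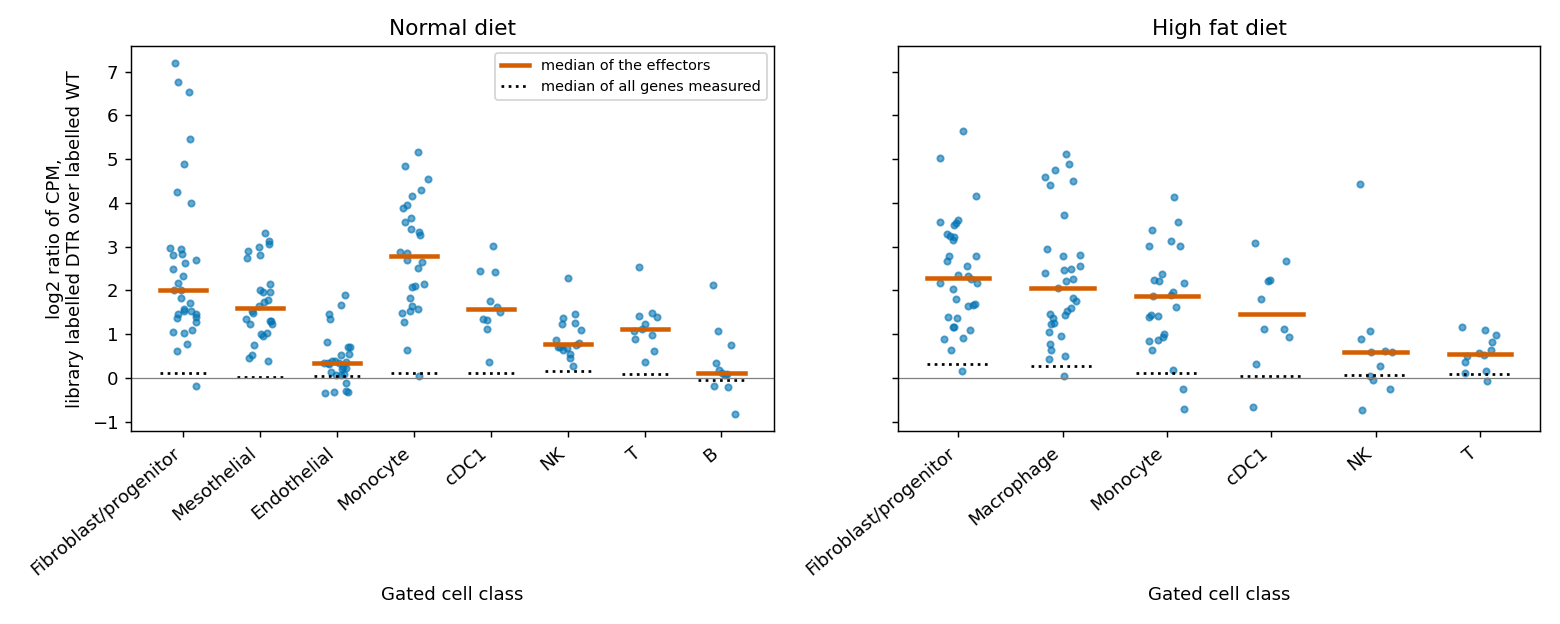
Log2 ratio of CPM, library labelled DTR over library labelled WT, for each effector measured (points) by gated class on normal diet and high fat diet, with the median of the effectors (solid line) and of all genes measured (dotted line). The effector medians lie at 2.00 in normal diet fibroblasts and 0.34 in endothelial cells, and at 2.29 in high fat diet fibroblasts.

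The gates differed between the libraries in ways that moved with the genotype label. In monocytes, 41 of 72, 35 of 159, 39 of 65 and 55 of 231 cells held no more than the minimum of 4 markers. The type 2 conventional dendritic markers in monocytes summed to 1608, 423, 1015 and 424 CPM, with 1 to 3 of the 8 at 0. The macrophages' median depth was 9607, 19422, 9264 and 14528 UMIs, and their own 8 markers summed to 7693, 4038, 11690 and 4123 CPM in the macrophage class, with none at 0. These macrophage markers were thus lower in the libraries labelled DTR, in which the effectors were higher. RNA free in the droplets adds to every class. The markers of the fibroblast and adipocyte progenitor class summed in monocytes to 30.3, 45.3, 68.5 and 153 CPM, and in fibroblasts to 6768, 9817, 11153 and 15752 CPM. The part of these in the ratios was not tested. Under a stricter gate, 31 and 30 members were 2-fold higher in fibroblasts on normal and high fat diet and 28 in high fat diet macrophages, while B cells on normal diet and natural killer cells on high fat diet kept 1 each. Monocytes had too few cells for these ratios under that gate.

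The diet comparison asked how the effectors differed between high fat and normal diet within 1 genotype label. It shares its libraries with the comparison above. Only 5 comparisons had at least 20 members measured: fibroblasts of both labels, endothelial cells labelled WT, and macrophages and monocytes labelled DTR. In each of these the members' median was below 0 on high fat diet. In fibroblasts labelled WT 8 of 29 were at least 2-fold lower (4.15% of all genes), with a median log2 ratio of -0.86 against -0.08. Ifit1 stood at 18.9 against 156 CPM (log2 -3.04, interval -3.21 to -2.88), and Ifit3b and Parp14 followed at -1.79 and -1.71. In endothelial cells labelled WT 5 of 28 were (2.58%), with a median of -0.55 against -0.01. Ifi27l2a stood at 95.5 against 496 CPM there (-2.38), Ifit1 at 41.9 against 163 CPM (-1.97) and Isg15 at 357 against 778 CPM (-1.12). In fibroblasts labelled DTR 11 of 34 were 2-fold lower (4.68%), with a median of -0.60 against 0.13, led by Ifit1 (169 against 624 CPM), Rsad2 (71.5 against 264 CPM) and Cmpk2 (8.71 against 27.5 CPM). In monocytes labelled DTR 6 of 30 were (1.70%), with a median of -0.60 against 0.05, led by Ifit2 (13.3 against 66.6 CPM), Ifit3 and Rsad2. In macrophages labelled DTR 2 of 33 were (1.43%), Ifit2 and Cmpk2, with a median of -0.44 against 0.03. No member was 2-fold higher on high fat diet in these 5 comparisons. The other classes had 1 to 17 members measured, and their medians lay on both sides of 0. With the WT label they ran from -0.30 in B cells to 0.15 in monocytes. With the DTR label they ran from -0.48 in T cells to 0.75 in neutrophils.

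Single cells showed whether a class carried its effectors in many or few cells. Each cell was thinned to 2000 UMIs, shallower cells were left out, and a cell was counted when it held a UMI of 3 or more of the 31 members. In fibroblasts 17.1%, 52.5%, 5.57% and 37.3% of cells were counted (exact 95% intervals 14.8 to 19.6, 49.4 to 55.6, 4.51 to 6.79 and 35.5 to 39.2). Unthinned, the fibroblast shares were 76.2%, 92.8%, 59.8% and 90.9%. In monocytes the shares were 10.1%, 58.2%, 15.9% and 47.7%, and in macrophages 15%, 42.9%, 12.96% and 34.2%, where normal diet WT rests on 20 cells (interval 3.21 to 37.9). Unthinned, the monocyte shares were 55.6%, 88.7%, 52.3% and 77.1%. Mesothelial cells on normal diet went from 34.4% labelled WT to 87.9% labelled DTR. Endothelial cells were alike at 59.6% and 57.7% on normal diet, with intervals of 56.1 to 63.0 and 52.4 to 62.9, and held 44.5% in high fat diet WT. Type 1 conventional dendritic cells went from 3.73% to 26.0% on normal diet and from 6.78% to 24.6% on high fat diet, and B cells stayed between 3.87% and 7.69%. The share was higher in the library labelled DTR in 21 of the 22 pairs of class and diet, with normal diet endothelial cells as the exception, and in 21 of 23 at 1000 UMIs. Of T cells in high fat diet DTR 130 of 195 were too shallow, and neutrophils could not be thinned to this depth. The 10% of thinned cells with the most effector UMIs held 19.3% to 55.6% of a class's effector UMIs, and the highest number of members in a thinned cell was 24 of 31, in a macrophage of high fat diet DTR.

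**Figure D5:**
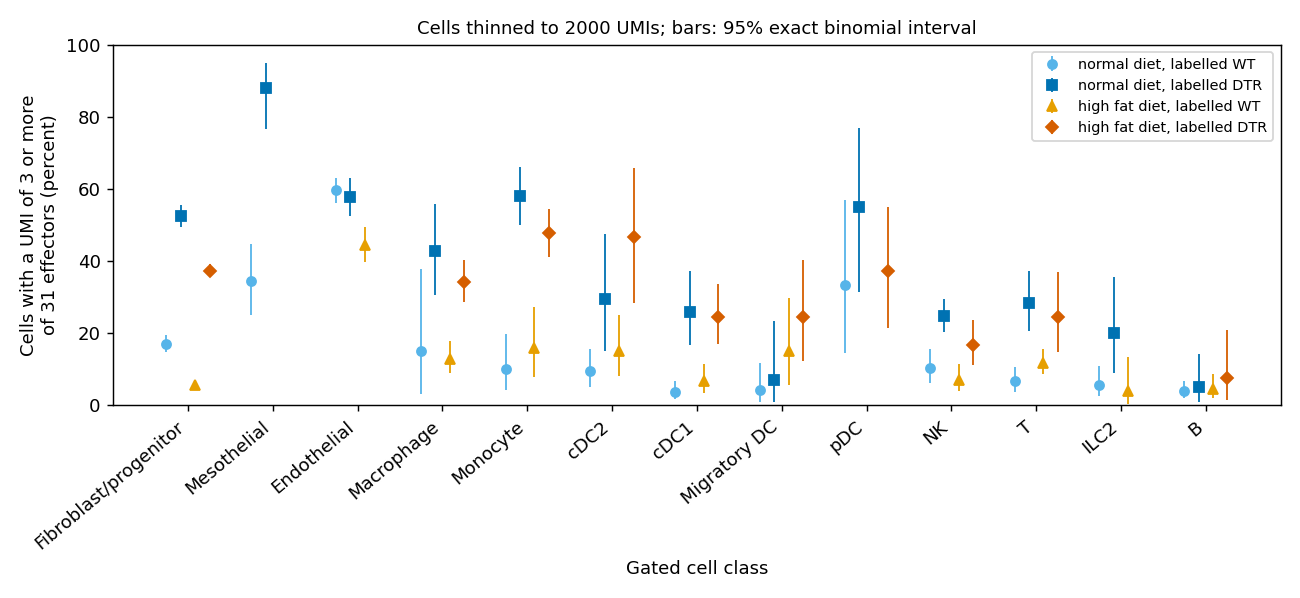
Percent of cells, thinned to 2000 UMIs, with a UMI of 3 or more of 31 effectors, by gated class and library, with bars for the 95% exact binomial interval. Fibroblasts stand at 17.1% and 52.5% on normal diet for the libraries labelled WT and DTR, while endothelial cells stand at 59.6% and 57.7%.

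The other genes of the pathway, 37 ligands, receptors, signal carriers, sensors and brakes, were counted in the same way. Of these 26 passed the filter of the main test. Monocytes were higher in 9 (23.2% of all genes) and lower in 2 (12.5%), and neutrophils in 5 (13.4%) and 1 (21.8%). Fibroblasts were higher in 10 (42.6%) and lower in 12 (29.7%), and macrophages in 7 (30.3%) and 8 (22.0%), so their higher counts were near the background. Type 1 conventional dendritic cells were higher in 11 (23.7%) and lower in 9 (19.9%). Natural killer cells were higher in 9 (30.5%) and lower in 10 (23.1%), and B cells in 2 (23.4%) and 9 (17.3%). The genes called in the most classes were Myd88, Irf5 and Ifngr2, with 8 each. Myd88, the adaptor of Toll-like receptors, stood at 129, 110, 91.3 and 75.8 CPM in fibroblasts (log2 difference 1.25, edgeR adjusted p = 2.58e-10). Irf5, a transcription factor of myeloid cells, stood at 234, 247, 229 and 223 CPM in type 1 conventional dendritic cells (2.33, edgeR adjusted p = 2.7e-17) and at 2.34, 4.59, 3.34 and 9.03 CPM in fibroblasts. Ifngr2, a chain of the interferon gamma receptor, had 4, 14, 1 and 2 UMIs in natural killer cells (-4.32, edgeR adjusted p = 2.14e-15). Irf5 was nearly level over the 4 libraries in type 1 conventional dendritic cells.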

How the data were processed

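The deposited matrix held raw UMI counts per gene and barcode. Per the submitters' processing notes it was made with Cell Ranger 3.1.0 on mm10, and no source used here gives whether aggregation equalised depth. Barcodes ending in n were taken as the library on the nth line of the aggregation list, which is stated nowhere else. A cell was gated when 4 of 8 markers of a class and 2 times as many as of any other class had a UMI. This scoring rule, keeping 1 copy of each shared barcode, and leaving a class without UMIs of a gene out of that gene's mean (2183 of 9806 genes) were chosen after seeing the data. No doublet caller was run, and free RNA was not subtracted. The gate left out cells with near equal marker numbers of 2 classes but passed cells with fewer markers of a second class. Monocytes of both libraries labelled WT had medians of 4 own and 2 next-class markers. The labels give 5.4% multiplets (droplets with more than 1 cell) for each group, so mixed cells may remain. Counts summed per class and library were tested with edgeR 4.0.16 (TMM, filterByExpr, glmQLFTest, 10 classes with 20 or more cells in each library) and DESeq2 1.42.0 in R 4.3.3, after a check on simulated data, and all else was computed in Python 3.11.15 with numpy 2.4.6, scipy 1.17.1, pandas 2.3.3 and matplotlib 3.10.9. Gene positions are GENCODE and promoters RefSeq, both on GRCm38. Totals were 37655128, 33390225, 49142626 and 64766718 UMIs in the order of the report. Intervals and floors (3 UMIs) cover counting error only. All members were named by role, with levels in every library for the 2 of each role with the most UMIs, and for each library comparison the 3 with the largest ratios. The members and lists were chosen with earlier results of these data known.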

Additional observations from a re-analysis of the deposited data

Results flagged for a closer look

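Isg15 in natural killer cells differed in direction between the diets. On normal diet it stood at 110 CPM in the library labelled DTR and 75.5 CPM in that labelled WT, a log2 ratio of 0.54 (95% exact interval for counting error 0.13 to 0.97). On high fat diet it stood at 39.9 and 66.1 CPM, a log2 ratio of -0.73 (interval -1.42 to -0.06). The difference between the diets was not tested, since each group has 1 library.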

How the results depend on the processing

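No paired analysis was possible because each group has 1 library, so the groups share no replicate numbers; library was the block of the class test. Of 429 counts of members recomputed under alternatives, 378 stayed within 1.5 times and 51 did not; of the other values 437 moved by less than counting error, 74 moved and 6 reversed. Leaving out 1 library at a time gave these ranges of members higher and lower: monocytes 12 to 27 and 0 to 0, fibroblasts 15 to 19 and 2 to 4, macrophages 14 to 18 and 1 to 4, neutrophils 11 to 15 and 1 to 2, type 1 conventional dendritic 4 to 5 and 15 to 16, type 2 4 to 6 and 0 to 0, migratory dendritic 4 to 5 and 1 to 4, natural killer 2 to 4 and 14 to 18, T 1 to 2 and 5 to 8, B 0 to 2 and 12 to 16. Without the library block 1 was lower in fibroblasts, 0 in macrophages, 11 in type 1 and 2 in migratory dendritic, 10 in natural killer cells and 1 in neutrophils; 2 were higher in type 1, 4 in type 2 and 2 in migratory dendritic and 0 in B cells. Without a count filter 4 were lower in macrophages, 1 in type 2 and 7 in migratory dendritic and 10 in T cells, and 2 were higher in T and 2 in B cells. With 13 classes 1 was lower in monocytes, and 3 were higher in migratory dendritic, 3 in T and 2 in B cells. RLE scaling left 2 lower in fibroblasts, leaving out all shared barcodes 0 lower in macrophages, the looser cell filter 1 lower in neutrophils, and the stricter one 2 higher in type 1 dendritic and 4 in T cells. In T cells 2 were higher under the stricter gate and 2 without cells over 30000 UMIs. DESeq2 kept all 20 counts within 1.5 times, with 17 higher in monocytes. A minimum of 200 UMIs left fewer members measured and gave 7 higher with the DTR label in mesothelial, 2 in endothelial and 10 in monocyte cells on normal diet, 5 in monocytes on high fat diet, and 3 lower by diet in monocytes labelled DTR. That last count was 14 under the stricter gate, and the macrophage one 1 with every cell scaled alike. The longer motif left 9 members. Medians that changed sign lay near 0: B cells by label on normal diet -0.041 at 200 UMIs; by diet with the WT label, type 1 dendritic -0.079 (TMM), -0.0053 (20 UMIs) and -0.063 (200 UMIs), T -0.078 (stricter gate) and B 0.051 (every cell scaled alike). Beyond fewer genes or cells, the causes were not tested. Macrophages, B cells and neutrophils under the stricter cell filter, type 2 dendritic cells under the stricter gate and macrophages without cells over 30000 UMIs fell under 20 cells in a library and could not be fitted. With 1 library per group, differences between libraries and between groups cannot be told apart.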

Other observations

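Values of a few pathway genes, chosen after they were seen, stand beside the effectors. Irf7, the factor that amplifies interferon production, stood at 13.7, 440, 102 and 325 CPM in monocytes and at 43.6, 173, 25.2 and 166 CPM in fibroblasts, in the library order of the report. For Irf7 in both classes each library labelled DTR was above each labelled WT.

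The interferon beta gene Ifnb1 had 21, 0, 16 and 0 UMIs in type 2 conventional dendritic cells, or 19.4, 0, 24.7 and 0 CPM. The 2 libraries labelled DTR had 35 and 30 such cells, with exact 95% upper limits of 12.2 and 21.01 CPM. These limits reach into the intervals of those labelled WT (12.01 to 29.7 and 14.1 to 40.2 CPM). Overlap of separate intervals does not decide whether 2 libraries differ, and the difference was not tested. In monocytes Ifnb1 had 11, 0, 9 and 1 UMIs, or 16.7, 0, 19.9 and 0.782 CPM, with upper limits of 3.15 and 4.36 CPM in the libraries labelled DTR, below the lower limits of 8.33 and 9.10 CPM in those labelled WT. In macrophages Ifnb1 had 0, 1, 10 and 26 UMIs. Markers of plasmacytoid dendritic cells were also higher with the WT label, at 175, 62.7, 127 and 39.9 CPM in type 2 conventional dendritic cells and 205, 16.2, 97.3 and 17.2 CPM in monocytes, with 2 to 6 of the 8 at 0. Their part in the Ifnb1 values was not tested. Ifng, the gene of interferon gamma, stood at 61.3, 148, 96.6 and 76.0 CPM in natural killer cells and at 14.5, 157, 50.6 and 31.3 CPM in T cells.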
